A study of Homo sapiens with 4 samples.

Results

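Plasminogen activation was described here through 8 genes picked by name, PLAU, PLAT, PLAUR, SERPINE2, SERPINB2, F3, TFPI2 and THBD, out of 50868 genes counted in RNA of A549 cells. All 8 are listed in the files, and 7 of them passed a filter on low counts that kept 15222 genes. A549 is a human lung adenocarcinoma line. The control group holds 2 libraries of A549 cells with the empty vector, and the USP12 group holds 2 libraries of A549 cells made to overexpress USP12, a deubiquitinase, from a lentiviral pLVX vector. Which epitope tag the USP12 of these cells carries is not given in the sources used here. Neither the labels nor the methods say whether the replicates were separate cultures, or whether the USP12 cells were a pool or a clone, so the p-values measure only the spread between these libraries, which may be technical. The comparison asks how gene expression of lung tumour cells differs when USP12 is abundant.

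Plasmin, the main protease that dissolves fibrin, is made from plasminogen by urokinase (PLAU) and by tissue-type plasminogen activator (PLAT). Urokinase works mostly at the cell surface, bound to its receptor PLAUR, and serpins such as SERPINE2 and SERPINB2 trap the activators. The same cell surface carries the switches of coagulation: tissue factor (F3) starts it, the Kunitz-type inhibitors TFPI and TFPI2 restrain serine proteases of these pathways, and thrombomodulin (THBD) turns thrombin towards the activation of protein C. In carcinoma cells this system is known for its part in invasion and in the remodelling of the matrix.

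The libraries held between 14280081 and 16305356 counts of uniquely mapped fragments, and 3 counts correspond to between 0.166 and 0.227 CPM, the count of a gene relative to the size of its library after TMM scaling. USP12 had 15.2 and 34.4 CPM in the controls and 1745 and 2235 CPM with USP12. The control libraries were less alike than the USP12 libraries, with an SD of the log2 ratio across the tested genes of 1.32 against 0.618. This SD was 1.1 and 1.01 between control replicate 2 and USP12 replicates 1 and 2, so smaller than between the controls. The column heading of control replicate 1 also carries a different prefix from the other 3. Fold changes are therefore also given against each control library alone. Of the epithelial markers EPCAM, KRT8, KRT18, KRT19 and CDH1, all 5 were present in every library, with summed levels of 9640 and 5060 CPM in control cells and 4280 and 3980 CPM in USP12 cells. Of 7 endothelial markers, 5 had at most 3 counts in every library, and the other two were CDH5 and PECAM1. The 7 summed to 15.4 and 8.59 CPM in control cells and to 0.504 and 1.52 CPM in USP12 cells. The 5 fibroblast markers summed to between 2.83 and 20.9 CPM with DCN at 0 throughout and COL1A1 at 47 to 262 counts. The 6 leukocyte markers summed to between 8.92 and 44.2 CPM, with CD14 at 85 to 424 counts, ITGAM at 23 to 143 counts and PTPRC at no more than 1 count. The 3 platelet markers summed to between 4.77 and 22.9 CPM, with PF4 at 49 to 195 counts, ITGA2B at 17 to 107 counts and GP9 at 0 throughout. The part of these marker genes in the results below was not tested.

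Within the plasminogen system of these cells, the activators and the receptor stood on opposite sides. PLAU, PLAT and the inhibitor SERPINE2 were higher in both USP12 libraries than in both control libraries, whereas PLAUR and THBD were lower in both. TFPI2 and F3 overlapped between the groups, and SERPINB2 was not detected. In bulk RNA, fewer cells expressing a gene and less RNA per cell cannot be told apart. By the criterion of the study, an unadjusted p of 0.05 or less with at least a 2-fold change, 1 of the 7 tested genes was lower (PLAUR) and 0 were higher, beside 4.41% of all tested genes lower and 2.92% higher. Groups that did not overlap were found in 2 of 7 genes below and 3 of 7 above, beside 17.0% and 19.5% of all tested genes, respectively. No gene among the 7, nor any among the 15222, had an adjusted p under 0.05 in edgeR's quasi-likelihood test (0%), while 1 of the 7 and 1155 of the 15222 had an unadjusted p under 0.05. The overexpressed gene itself, USP12, had a log2 fold change of 6.32 and an adjusted p of 0.0975 in this test. The absence of calls is therefore not a sign that a gene was unchanged. At an adjusted p under 0.05, the DESeq2 Wald test called 1 of the 7, PLAUR, beside 273 lower and 133 higher of the 15222. The edgeR exact test called 0 of the 7 at that threshold, beside 262 lower and 167 higher of the 15222. With 2 libraries in each group, an exact permutation test of a single gene (two-sided) cannot give a p below 0.333.

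PLAU (ENSG00000122861), the gene of urokinase, lies on the plus strand of chromosome 10 (73909177 to 73917496, GRCh38). It was measured at 75.4 and 29.4 CPM in the controls and at 94.8 and 95.9 CPM with USP12. The USP12 libraries were nearly identical, and control replicate 1 lay closer to them than to control replicate 2. The log2 fold change was 0.86 (SE 0.52, adjusted p = 0.847 by the quasi-likelihood test of edgeR), which is smaller than the log2 difference of 1.36 between the control libraries. Against control replicate 1 alone it was 0.37 and against control replicate 2 alone 1.70. No p is given here or below for a fit against a lone control, which is assumed to vary like the USP12 libraries. C10orf55 lies over PLAU on the opposite strand, and had 4 to 17 counts per library beside the 530 to 1385 counts of PLAU.

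PLAT (ENSG00000104368, chromosome 8, 42174718 to 42207709, minus strand) encodes tissue-type plasminogen activator, which acts chiefly on fibrin. Its level was 3.94 and 1.33 CPM in control cells, from 52 and 24 counts, and 10.1 and 6.58 CPM with USP12, from 140 and 95 counts. The exact 95% Poisson intervals, which cover counting error only, ran from 2.94 to 5.16 CPM in control replicate 1 and from 5.32 to 8.04 CPM in USP12 replicate 2, the closest pair of libraries across the groups. These intervals did not overlap, although PLAT was a minor transcript in all 4 libraries. The log2 fold change of 1.67 (SE 0.70) was the highest of the 7 genes, and 3.02% of all tested genes had a higher one. It had an unadjusted p of 0.0543 and an adjusted p of 0.674 in edgeR's quasi-likelihood test, and it met the criterion of the study by the Wald test of DESeq2 (unadjusted p = 0.0359). The log2 fold change was 1.11 against control replicate 1 and 2.64 against control replicate 2. The control libraries themselves differed by 1.57 on the log2 scale. Per kilobase of exon, PLAU made up between 96.1% and 98.3% of the summed PLAU and PLAT level in each library.

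**Figure D1:**
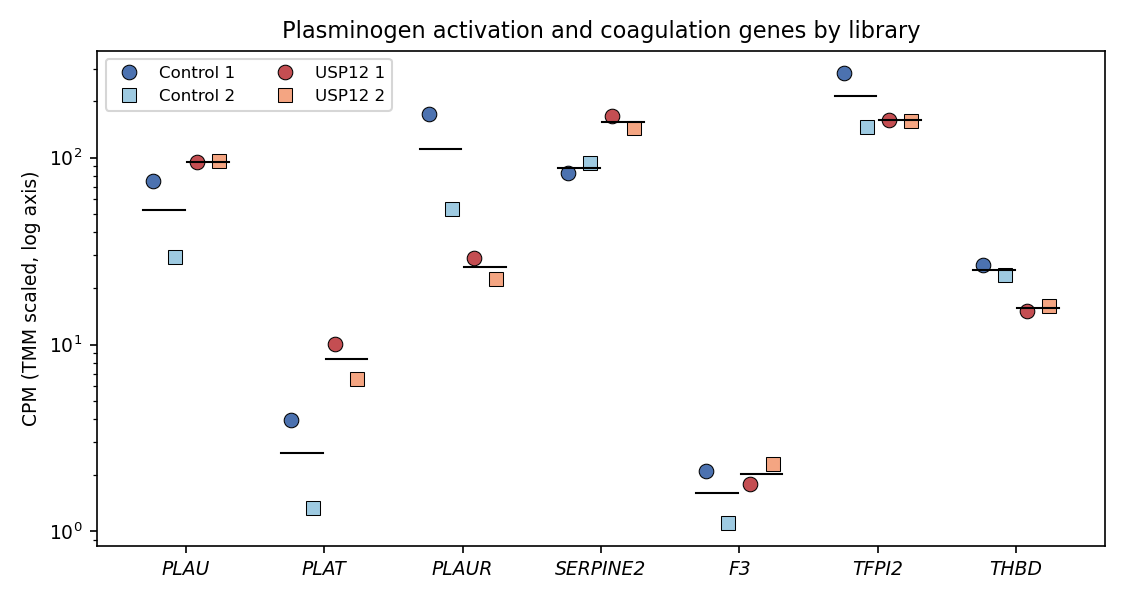
CPM of the 7 tested genes in each library, on a log axis, with control libraries in blue, USP12 libraries in red and orange, replicate 1 as circles and replicate 2 as squares; the black bars are group means of 2 libraries. The red and orange points of PLAU, PLAT and SERPINE2 lie above both blue points, those of PLAUR and THBD lie below both, and SERPINB2, with 0 counts throughout, is not drawn.

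PLAUR (ENSG00000011422), the surface receptor that concentrates urokinase on the cell, lies on the minus strand of chromosome 19 (43646095 to 43670547). Its level was 171 and 52.9 CPM in the controls and 29.2 and 22.5 CPM with USP12. All USP12 values were below all control values, and control replicate 1 stood 3.23-fold above control replicate 2. The mean level was 4.32-fold lower in USP12 cells, a log2 fold change of -2.11 (SE 0.62, unadjusted p = 0.0139 and adjusted p = 0.418 by the quasi-likelihood test of edgeR). Only 2.73% of all tested genes had a lower fold change. The log2 difference between the control libraries was 1.69. The log2 fold change was -2.69 against control replicate 1 and -1.03 against control replicate 2. The Wald test of DESeq2 on all 4 libraries gave an adjusted p of 0.0164. Without USP12 replicate 2 the change was -1.92, and PLAUR then no longer met the criterion (unadjusted p = 0.0744 by the same test of edgeR). With the replicate number as a block it was -1.89 (adjusted p = 0.0273 in edgeR). No label pairs the libraries, and in that fit every gene took the trended variance. RN7SL368P, a short RNA gene on the same strand within PLAUR, had 0 counts in every library.

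Of the 8 genes, 6 have promoter windows in the RefSeq table of GRCh38.p14, from 250 bases before to 50 bases after a transcription start, and 4 of these 6 genes hold the AP-1 motif TGANTCA, which reads alike on both strands. The motif is present in 9.37% of all 27305 genes of the table and in 7.71% of its 35116 windows. A match describes these letters only. The PLAUR window and the downstream one of the pair of PLAU windows are shown whole, because receptor and ligand stood on opposite sides, and stretches around the motif are shown for F3, TFPI2 and SERPINB2. Capitals mark TGANTCA, and each sequence runs 5′ to 3′ on the strand of its gene. The stretches lie at chr19:43670120-43670419 (minus) for PLAUR, chr10:73910882-73911181 (plus) for PLAU, chr1:94541943-94542002 (minus) for F3, chr7:93890814-93890860 (minus) for TFPI2 and chr18:63887583-63887629 (plus) for SERPINB2.
PLAUR: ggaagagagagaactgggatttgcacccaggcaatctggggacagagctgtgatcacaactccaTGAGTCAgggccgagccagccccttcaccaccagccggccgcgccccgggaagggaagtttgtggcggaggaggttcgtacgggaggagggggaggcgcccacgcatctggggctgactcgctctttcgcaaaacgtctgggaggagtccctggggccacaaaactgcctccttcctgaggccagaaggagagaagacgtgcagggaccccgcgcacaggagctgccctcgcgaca
PLAU: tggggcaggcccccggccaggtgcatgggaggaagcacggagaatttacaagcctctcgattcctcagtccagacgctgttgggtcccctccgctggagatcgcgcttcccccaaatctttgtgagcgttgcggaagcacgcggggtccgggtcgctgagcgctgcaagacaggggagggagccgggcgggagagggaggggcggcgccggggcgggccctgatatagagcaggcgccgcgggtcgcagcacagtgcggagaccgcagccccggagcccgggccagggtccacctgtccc
F3: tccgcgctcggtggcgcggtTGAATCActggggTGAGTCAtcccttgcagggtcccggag
TFPI2: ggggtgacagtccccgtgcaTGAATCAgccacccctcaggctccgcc
SERPINB2: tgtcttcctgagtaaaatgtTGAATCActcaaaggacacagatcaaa
The match lies at -186 to -180 from the start in PLAUR, at -87 to -81 in TFPI2 and at -102 to -96 in SERPINB2. F3 holds a pair of matches, at -223 to -217 and at -210 to -204. Neither of the PLAU windows nor those of SERPINE2 hold the motif. The other motifs searched on both strands were CRE (TGACGTCA), with 0 matches in these windows, TEAD (GGAATG), also with 0, E-box (CACGTG), with 1 in a SERPINE2 window at -87 to -82, and the NF-κB motif, with 1 in TFPI2 at -152 to -143. They are found in 2.25%, 16.7%, 8.77% and 13.3% of all genes of the table. Genes with the AP-1 motif were lower (PLAUR), overlapping between the groups (TFPI2 and F3) and undetected (SERPINB2).

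Among the inhibitors of the activators, SERPINE2 was the most even of the genes above the control range. SERPINE2 (ENSG00000135919, chromosome 2, 223975045 to 224039318, minus strand) encodes protease nexin-1, a cell-bound serpin that inhibits thrombin, urokinase and plasmin. Its level was 83.2 and 93.3 CPM in the controls and 167 and 144 CPM with USP12. The groups did not overlap, and the gap between them was wider than the spread within either. The mean level was 1.76-fold higher, a log2 fold change of 0.82 (SE 0.35), with an unadjusted p of 0.0549 and an adjusted p of 0.674 in edgeR's quasi-likelihood test. The estimate was 0.93 against control replicate 1 and 0.74 against control replicate 2, and the control libraries differed by -0.17 on the log2 scale. SERPINB2 (ENSG00000197632, chromosome 18, 63871692 to 63903888), which encodes the urokinase inhibitor PAI-2, had 0 counts in all 4 libraries, which allows a level of up to 3 counts (0.166 to 0.227 CPM), and no fold change is given. ENSG00000289724, which GENCODE places over SERPINB2 on the same strand, is not listed in the files.

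**Figure D2:**
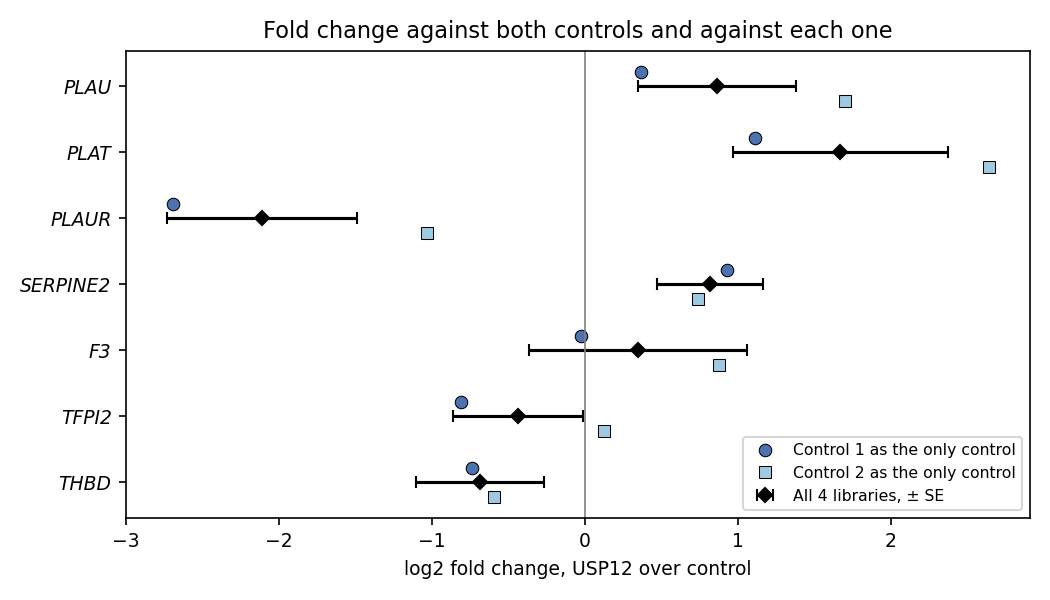
log2 fold change of USP12 over control cells for the 7 tested genes: diamonds use all 4 libraries (bars, approximate SE), circles use control replicate 1 and squares control replicate 2 as the sole control. The estimates of SERPINE2 (0.93 and 0.74) and THBD (-0.74 and -0.60) differ little between the controls, while those of PLAU, PLAT and PLAUR are far apart and those of TFPI2 and F3 change sign.

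The initiator of coagulation was scarce in these cells. F3 (ENSG00000117525, chromosome 1, 94529173 to 94541759, minus strand), the gene of tissue factor, was counted 28 and 20 times in the controls, and 25 and 33 times with USP12. These correspond to 2.12 and 1.11 CPM and to 1.80 and 2.29 CPM, so the groups overlapped. The 95% Poisson intervals of control replicate 1, 1.41 to 3.06 CPM, and of USP12 replicate 2, 1.57 to 3.21 CPM, overlapped for most of their length. The log2 fold change was 0.35 (SE 0.71, adjusted p = 0.971 by the quasi-likelihood test of edgeR), and a difference was not detectable at this depth.

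TFPI2 (ENSG00000105825, chromosome 7, 93885396 to 93890753, minus strand), a matrix-bound Kunitz-type inhibitor that acts on plasmin, was the most abundant of the 8 genes per kilobase of exon. It had 283 and 145 CPM in the controls and 159 and 158 CPM with USP12, which lay between the control values. Its log2 fold change of -0.44 (SE 0.43, adjusted p = 0.933 by the quasi-likelihood test of edgeR) was smaller than the log2 difference of 0.96 between the controls. Against control replicate 2 alone it was 0.13, and against control replicate 1 alone -0.81. GNGT1, which lies across TFPI2 on the opposite strand, had at most 3 counts in any library.

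THBD (ENSG00000178726, chromosome 20, 23045633 to 23049672, minus strand), the gene of thrombomodulin, the thrombin receptor of the vessel wall that is also found on some epithelia, had 26.6 and 23.7 CPM in the controls and 15.1 and 16.1 CPM with USP12. The groups did not overlap, and the libraries within each group were close. The mean level was 1.61-fold lower, a log2 fold change of -0.69 (SE 0.42, adjusted p = 0.850 by the quasi-likelihood test of edgeR), and it was -0.74 and -0.60 against control replicates 1 and 2 alone. The endothelial markers CDH5 and PECAM1 were also lower in both USP12 libraries: CDH5 had 10.3 and 5.32 CPM in control cells and 0.144 and 0.346 CPM in USP12 cells, and PECAM1 had 5.15 and 3.10 CPM against 0.288 and 0.970 CPM. The markers KDR, TEK, VWF, ERG and CLDN5 had at most 3 counts in any library. The part of these genes in the THBD result was not tested.

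Levels of different genes were set side by side as CPM per kilobase of annotated exon. In both control libraries the order was led by TFPI2 (116 and 59.5 CPM per kilobase), with PLAUR the second (38.3 and 11.9). In both USP12 libraries TFPI2 (64.9 and 64.7) was followed by PLAU (32.1 and 32.5) and SERPINE2 (18.6 and 16.1), and PLAUR was the fourth (6.56 and 5.05). PLAU (25.6 and 9.96) lay below PLAUR within each control library, although their ranges over the control libraries overlapped. Compared with SERPINE2 (9.28 and 10.4), PLAU was higher in control replicate 1 and slightly lower in control replicate 2. PLAUR lay above SERPINE2 in both control libraries. By contrast, in USP12 cells the ranges of TFPI2, PLAU, SERPINE2 and PLAUR were all separate. THBD was the fifth in every library, with 6.59 and 5.86 CPM per kilobase in control cells and 3.74 and 3.99 in USP12 cells. F3 (0.384 to 0.792 CPM per kilobase over the 4 libraries) and PLAT were the least abundant detected genes. PLAT was last in the control libraries, with 0.506 and 0.171 CPM per kilobase, and above F3 in the USP12 libraries, with 1.30 and 0.847. Exon lengths joined over all transcripts overstate the length of genes with many isoforms, so these levels are approximate.

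Ratios taken within a library do not depend on the scaling between libraries. The ratio of PLAU to its receptor PLAUR, per kilobase, was 0.667 and 0.839 in the controls, and 4.90 and 6.44 with USP12. All USP12 values lay above all control values, and the group means differed by 2.91 on the log2 scale, beside an SD within groups of 0.257. Between the control libraries, PLAU and PLAUR were both higher in replicate 1, by 1.36 and 1.69 on the log2 scale, so their ratio was alike in these libraries although the level of each gene was not. The ratio of F3 to TFPI and TFPI2 was 0.00596 and 0.00558 in control cells and 0.00865 and 0.0111 in USP12 cells, a log2 difference of 0.77 (SD within groups 0.188), and it rests on the 20 to 33 counts of F3. Per kilobase of exon, TFPI2 accounted for 86.3% to 94.1% of the summed TFPI and TFPI2 level. Without division by length, TFPI had 85.0 and 110 CPM in control cells and 84.1 and 76.3 CPM in USP12 cells. TFPI2 had 283 and 145 CPM against 159 and 158 CPM, so its share was smaller on that scale. The ratio of the activators PLAU and PLAT to the serpins SERPINE2 and SERPINB2 was added after the data were seen. SERPINB2 had 0 counts and PLAU made up 96.1% to 98.3% of the activators, so it was close to PLAU over SERPINE2. The ratio was 2.81 and 0.972 in the controls, and 1.80 and 2.07 with USP12. These values overlapped, and the group means differed by 0.22 on the log2 scale (SD within groups 0.772). Against control replicate 2 alone this difference was 0.99, and against control replicate 1 alone -0.54. These ratios were not tested, as 2 libraries against 2 cannot give an exact permutation p under 0.333.

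**Figure D3:**
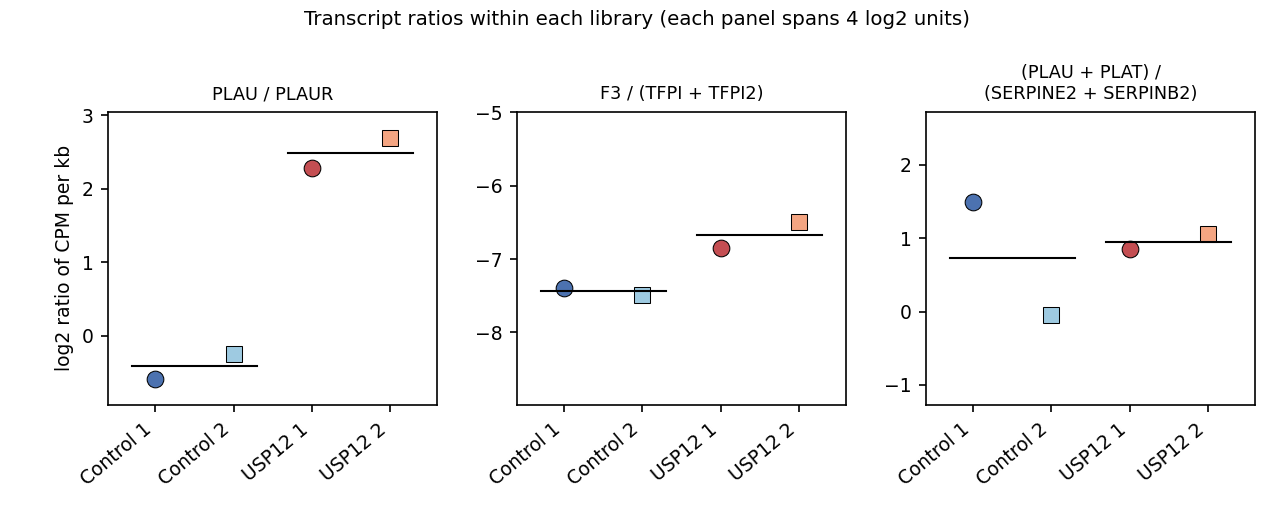
log2 ratio of CPM per kilobase within each of the 4 libraries for PLAU over PLAUR, F3 over TFPI and TFPI2, and PLAU and PLAT over SERPINE2 and SERPINB2; the black bars are group means, and each panel spans 4 log2 units. The PLAU to PLAUR ratio of the USP12 libraries lies well above that of the control libraries (group means 2.49 and -0.42). The ratio of F3 to TFPI and TFPI2 differs less (-6.67 and -7.44). In the last panel the USP12 libraries lie between the controls, and SERPINE2 alone is the divisor, as SERPINB2 had 0 counts.

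The 7 tested genes had no common direction. Their fold changes were above 0 in 4 genes and below 0 in 3, with a median of 0.35 on the log2 scale beside -0.06 over all tested genes, and the median of the 7 genes was -0.02 without control replicate 2. Their median absolute log2 fold change was 0.82, beside 0.42 over all tested genes. The median absolute log2 difference between the control libraries was 0.96 for the 7 genes and 0.88 over all tested genes.

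The tested genes outside the 8 whose pattern over the 4 libraries was nearest to each were found by the root mean square distance of centred log2 CPM. For PLAUR they were SYT7 and LENG9 (0.0499 and 0.0552), and 46 of the 15215 genes compared lay within 0.25. For PLAT they were TIAM2 and EFCAB12 (0.0661 and 0.0791), with 29 genes within 0.25, and for PLAU KIF3C and CTD-2207O23.12 (0.0366 and 0.0526), with 172. The nearest to SERPINE2 were STAMBPL1 and TIGAR, to THBD SHMT2 and LIMK2, to TFPI2 UBOX5 and TUT1, and to F3 PIPSL and RPL3P7, where between 852 and 2129 genes lay within 0.25. A fixed distance on this scale takes in fewer genes where a gene differs more between libraries. The numbers of genes within 0.25 therefore do not show how particular a pattern is, and the comparison covers 4 libraries only.

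The partners of these genes in the same pathways were counted over 3 lists, to be read beside 4.41% of all tested genes lower and 2.92% higher by the criterion and a median log2 fold change over all tested genes of -0.06. Of 27 other genes of the plasminogen system, 15 were tested, and 2 of them were lower and 0 higher by the criterion, with a median log2 fold change of -0.51. PLG, the gene of plasminogen itself, had 0 counts in every library. The lower genes were VTN, which encodes the adhesive matrix and plasma protein vitronectin, and SERPINI1, which encodes neuroserpin. VTN had 35.1 and 9.14 CPM in control cells and 2.52 and 2.84 CPM in USP12 cells, a log2 fold change of -3.04 (SE 0.75), and that of SERPINI1 was -1.66 (SE 0.59). ANXA2 and S100A10, whose proteins form a plasminogen-binding complex at the cell surface, had log2 fold changes of 0.81 (SE 0.35) and -0.67 (SE 0.38), and were named after their values were seen.

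Of 35 other coagulation genes, 22 were tested, 3 were lower and 2 higher, with a median log2 fold change of -0.23. The higher genes, F2R and F2RL1, encode protease-activated receptors cleaved by thrombin and by trypsin-like proteases. Of the other receptors of that family, named after their values were seen, F2RL2 had a log2 fold change of 0.11 (SE 0.69) with overlapping groups, and F2RL3 had at most 1 count in any library. F2R was at 32.1 and 39.0 CPM in control cells and 87.5 and 96.6 CPM in USP12 cells, a log2 fold change of 1.37 (SE 0.37), and F2RL1 was at 35.0 and 65.0 CPM against 165 and 169 CPM, a log2 fold change of 1.74 (SE 0.43). The lower genes were F5, which encodes factor V (-2.71, SE 0.61), LMAN1, which encodes the receptor that carries factors V and VIII out of the endoplasmic reticulum (-1.20, SE 0.45), and P4HB, a protein disulphide isomerase (-1.05, SE 0.36). Of 30 other serpins and Kunitz-type inhibitors, 14 were tested, 3 were lower and 1 higher, with a median log2 fold change of -0.75. SERPINA3, which encodes antichymotrypsin, changed by -5.90 (SE 1.16), SERPINA1, which encodes alpha-1 antitrypsin, by -2.72 (SE 1.07) and SERPINB7 by -2.42 (SE 0.88), while SERPINF1, which encodes the antiangiogenic factor PEDF, had 3.03 and 1.66 CPM in control cells and 14.3 and 16.1 CPM in USP12 cells (2.70, SE 0.56). Against control replicate 2 alone, the log2 fold change was -3.54 for SERPINA3, -0.44 for SERPINA1, -1.03 for SERPINB7, -1.77 for VTN and -0.64 for P4HB, and against control replicate 1 alone it was -0.66 for LMAN1. None of these genes had an adjusted p under 0.05 in edgeR's quasi-likelihood test (0 in each list).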

How the data were processed

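RNA of A549 cells was measured in 4 libraries. Poly(A) RNA was sequenced from stranded libraries. After trimming and removal of ribosomal reads with Seqtk, the authors aligned reads to GRCh38 with HISAT2 2.0.4 and counted uniquely mapped fragments per gene with StringTie 1.3.0, and the deposited values are these raw counts. The annotation release and the strand setting of the counting are not given in the sources used here, so genes annotated over the 8 on either strand are named. Counts were compared in R 4.3.3 with edgeR 4.0.16 (filterByExpr, TMM, quasi-likelihood test, group as the sole term), with Benjamini-Hochberg adjustment over 15222 genes. The SE of a log2 fold change was taken from its ratio to the root of F and is approximate. Levels are CPM on TMM-scaled library sizes, and log2 CPM for pattern distances used a prior count of 2. Positions and exon lengths came from GENCODE release 44 (99.2% of tested genes matched by identifier), and promoters from RefSeq. Groups came from the sample titles. The 8 genes, the lists and the motifs were chosen with earlier results of these data known. Named genes were these 8, USP12, TFPI, up to 4 genes per direction and list that met the criterion, and the 2 nearest genes by pattern, plus markers, overlapping genes, PLG and those said to be named after their values were seen. Alternatives were DESeq2 size factors, the exact test of edgeR, the Wald test of DESeq2 1.42.0, the quasi-likelihood test with legacy = FALSE, other filters on low counts, the replicate number as a block, leaving out each library, and ratios without exon length. The tests were tried on simulated counts. A planned ratio of activators to a larger set of inhibitors is not reported here.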

Additional observations from a re-analysis of the deposited data

How the results depend on the processing

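The directions of PLAUR, PLAT, PLAU, SERPINE2 and THBD were the same under every alternative run. With each control library left out, TFPI2 ran from -0.81 to 0.125 and F3 from -0.0239 to 0.879, TFPI2 turning positive without control replicate 1 and F3 negative without control replicate 2, as did the median of the 7 genes (-0.0239). The replicate numbers are shared between the groups, but no label pairs the libraries, and same-numbered libraries deviated together only weakly (correlation across genes 0.152). Of the 15222 tested genes, 671 were lower and 445 higher by the study's criterion. Without a filter on low counts they were 1173 and 688 of 24800 genes. At an adjusted p under 0.05 there were 0 of both, 361 lower and 167 higher without the filter, 273 and 133 by DESeq2 (Wald test), 262 and 167 by the exact test of edgeR, and 251 and 153 with the replicate block. Of the 7 genes described, PLAUR alone was then called (1 lower) without the filter, with the DESeq2 Wald test (adjusted p = 0.0164) and with the replicate block (adjusted p = 0.0273), against adjusted p = 0.0533 with the edgeR exact test. Over the alternatives that kept all 4 libraries, the adjusted p of PLAUR in edgeR's quasi-likelihood test ran from 0.00285 to 0.49. By the criterion, PLAT was 1 higher gene without the filter, with at least 10 counts in every library and by the Wald test of DESeq2. It was also 1 by the exact test of edgeR, legacy = FALSE and the replicate block (1.82). Over all tested genes, the higher genes in these fits ran from 325 of 13319 (at least 10 counts) to 688 of 24800 (no filter). In the fits with an infinite prior in edgeR (no filter, the block, and either USP12 library left out), every gene took the trended variance.
When each library was left out in turn, genes by the criterion ranged from 300 to 2134 lower and from 159 to 2495 higher, and those at an adjusted p under 0.05 from 28 to 2612 lower and from 12 to 2550 higher. The fits with a library left out tested between 15909 and 16137 genes. In those with a lone control library, that library was assumed to vary as little as the USP12 libraries. Calls of the 7 genes with a lone control are therefore not given. The log2 difference of the PLAU to PLAUR ratio ran from 2.71 to 3.11, and that of PLAU and PLAT to SERPINE2 and SERPINB2, with alternatives chosen after seeing the data, from -0.541 to 0.99. The counts of F3, 20 to 33 per library, and of PLAT, 24 to 140, limit their precision.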
